A study of Saccharomyces cerevisiae with 9 samples.

Results

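The flocculins and related cell-surface adhesion genes of the budding yeast Saccharomyces cerevisiae were followed in strains evolved for 6700 generations. The set holds 8 genes given by name (FLO1, FLO5, FLO8, FLO9, FLO10, FLO11, AGA1 and FIG2), out of 6947 probes on the arrays. Each gene had 1 probe, found by its systematic name, with a value on all 9 arrays and none at the lowest ratio of 0.01, so all 8 were among the 6866 probes tested. On 6 arrays RNA of m8, an evolved line with a raised mutation rate (a mutator), was set against RNA of its mutator ancestor, and on 3 control arrays a strain evolved without the mutator was compared with its own non-mutator ancestor. All strains had been grown overnight in YPD, a rich medium, and then grown again, in glass tubes holding 3 ml, until OD600 was near 0.3. No drug or other treatment was applied. The labels give neither the mutator allele, the mating type, the strain background nor the state of the FLO8 gene, and each evolved group is 1 strain. They also do not say whether replicates were separate cultures, and p-values therefore reflect only how far these samples scatter, possibly for technical reasons.

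Flocculins are large, glycosylated proteins of the yeast cell wall that let cells stick to each other or to surfaces. Flo1, Flo5, Flo9 and Flo10 bind sugars on neighbouring cells and cause flocculation. Flo11 mediates invasion of agar, filamentous growth and biofilms, and Flo8 is a transcription factor that activates FLO1 and FLO11. Aga1 is the wall-anchored subunit of the agglutinin of a cells, to which the binding subunit Aga2 is attached, and Fig2 is a related adhesin made during mating. FLO1, FLO5 and FLO9 are close homologues, and since the probe sequences were not analysed here, how far each probe also bound RNA of the other homologues was not tested. FLO8 is listed as a pseudogene in the R64 reference of the species, and the other genes as protein coding. In that reference the order of genes puts FLO10, FLO1, FLO9 and FLO5 4, 5, 8 and 13 genes from the nearer end of their chromosome. FIG2, FLO11, AGA1 and FLO8 lie 20, 26, 37 and 100 genes from it.

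Values below are log2 of evolved over ancestral signal after subtraction of each array's median, unless a ratio is named. Evolved over ancestor is the likely direction, because by the labels Cy5 marked evolved and Cy3 ancestral RNA throughout. The dyes were never swapped, so a dye effect on a probe cannot be told apart from a change. The mutator arrays form a first round and a repeat round of hybridisation that carry the same evolved RNA numbers 1, 2 and 3, and averaging each number's pair of arrays gave 3 replicates. Averaging evens out shifts between the rounds, so the ± values and p-values of the mutator can understate the scatter of single arrays. In limma the consensus correlation was -0.314 among arrays of 1 RNA number and 0.298 among arrays of 1 round. The arrays of the 2 lines differed in spread: over all probes, log2 ratios had an SD of 0.848 to 1.001 in the mutator and of 0.275 to 0.304 in the non-mutator. Their median ratio was 1.055 to 1.075 and 1.001 to 1.012 before centring. Calls rest on limma with an adjusted p under 0.05 over all probes tested. In this fit both lines share 1 estimate of the spread per probe, although their arrays differ in spread. Intervals and calls in the non-mutator thus also carry the scatter of the mutator, and the reverse. With each line fitted alone 65.2% of probes passed in the mutator and 35.8% in the non-mutator.

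In the mutator line 4 of the 8 genes fell (FLO9, AGA1, FLO1 and FLO5), 1 rose (FIG2) and 3 did not pass the test (FLO8, FLO10 and FLO11). In the evolved non-mutator 1 fell, AGA1, and the other 7 did not pass. The changes were small, none reaching 2-fold in either line. Calls were common on these arrays: 75.1% of all probes passed in the mutator, 37.3% higher and 37.8% lower, and 21.2% in the non-mutator, 10.2% higher and 11.1% lower. The counts for the adhesion genes, 5 of 8 and 1 of 8, are thus not above the share of all probes. The median change of the 8 genes was -0.18 in the mutator against 0.02 over all probes tested, and -0.08 against 0.00 in the non-mutator. The median absolute change was 0.26 against 0.45 in the mutator and 0.09 against 0.12 in the non-mutator. The plot of the 8 genes on each array shows these values.

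**Figure D1:**
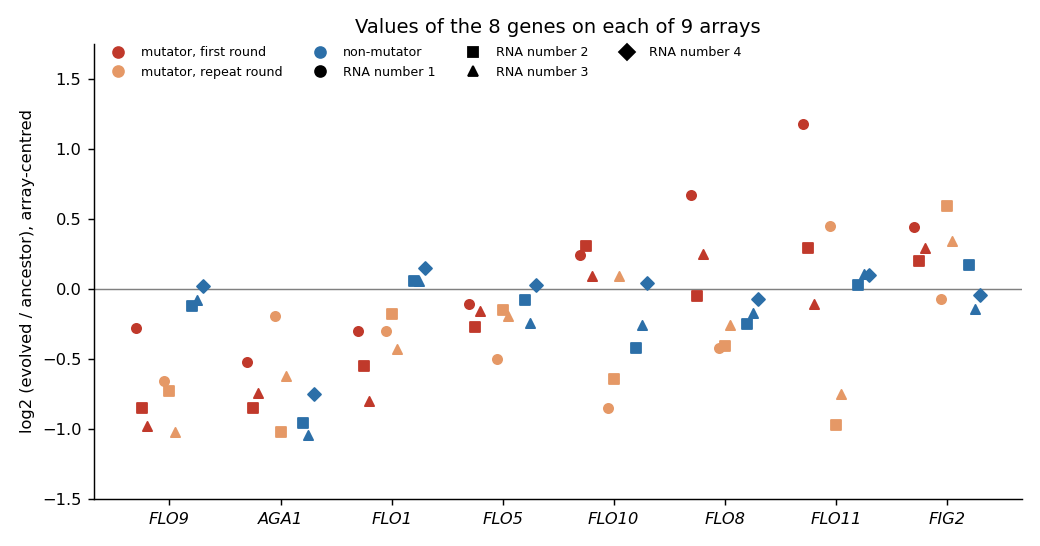
Each point is the array-centred log2 ratio of evolved strain over ancestor (vertical axis) for 1 gene on 1 array, with genes ordered by their mean in the mutator. Red points are the first and orange points the repeat mutator round, blue points the non-mutator, and the marker shape gives the RNA number. FLO9 and FLO1 lie below 0 on all 6 mutator arrays and below all 3 non-mutator arrays, AGA1 lies below 0 on all 9 arrays, and FLO11 spreads from -0.97 to 1.18.

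Among the flocculation genes, FLO9 (YAL063C) fell furthest in the mutator. Its values were -0.28, -0.85 and -0.98 on first-round arrays 1, 2 and 3 and -0.66, -0.73 and -1.02 on their repeats, against -0.12, 0.02 and -0.08 on non-mutator arrays 2, 4 and 3. Every mutator array was lower than every non-mutator array. The mean in the mutator was -0.75 ± 0.27 (SD, n = 3), which is 1.69-fold lower (adjusted p = 5.3e-04), and that in the non-mutator was -0.06 ± 0.07 (SD, n = 3; adjusted p = 0.75). The difference between the lines was -0.69 (95% interval -1.03 to -0.36, adjusted p = 0.0049). FLO9 fell in either round alone, by 0.70 in the first (adjusted p = 0.0027) and 0.80 in the repeat (adjusted p = 2.4e-04). With all arrays scaled to the same spread the difference between the lines was -0.36 and did not pass (adjusted p = 0.064).

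FLO1 (YAR050W), the best known flocculation gene, fell less. Its values were -0.30, -0.55 and -0.80 on first-round arrays 1, 2 and 3 and -0.30, -0.18 and -0.43 on their repeats, while the non-mutator arrays 2, 4 and 3 gave 0.06, 0.15 and 0.06. All mutator arrays were below 0 and all non-mutator arrays above it, so the groups did not overlap. The mutator mean was -0.43 ± 0.17 (SD, n = 3), 1.35-fold lower (adjusted p = 0.0015), and the non-mutator mean 0.09 ± 0.05 (SD, n = 3; adjusted p = 0.44). The lines differed by -0.52 (95% interval -0.75 to -0.28, adjusted p = 0.0040). In the first round alone the mean was -0.55 (adjusted p = 0.0020) and in the repeat -0.31 (adjusted p = 0.0058).

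FLO5 (YHR211W), the third close homologue, had the smallest decrease of those that passed. It stood at -0.11, -0.27 and -0.16 on first-round arrays 1, 2 and 3, at -0.50, -0.15 and -0.19 on their repeats, and at -0.08, 0.03 and -0.24 on non-mutator arrays 2, 4 and 3. All 6 mutator arrays were below 0, but the groups overlapped. Its mutator mean was -0.23 ± 0.07 (SD, n = 3), 1.17-fold lower (adjusted p = 0.015), and its non-mutator mean -0.09 ± 0.13 (SD, n = 3; adjusted p = 0.34). The difference between the lines was -0.13 (95% interval -0.35 to 0.08, adjusted p = 0.22). The decrease of FLO5 did not hold in every setting: it reached -0.13 without centring (adjusted p = 0.099), which moves the median of all probes in the mutator from 0.02 to 0.12, and -0.19 without mutator replicate 1 (adjusted p = 0.058). It was -0.18 in the first round alone (adjusted p = 0.054) and -0.28 in the repeat (adjusted p = 0.031).

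All 3 homologues fell in the mutator, and the differences between them are given as a description with no test. FLO9 was below FLO5 on all 6 mutator arrays. The difference FLO9 minus FLO5 was -0.17, -0.59 and -0.82 for RNA numbers 1, 2 and 3 in the first round and -0.16, -0.58 and -0.83 in the repeat. The size of this gap therefore followed the RNA number and came out nearly the same in both rounds, a pattern noticed after the values were seen and not tested. On the non-mutator arrays 2, 4 and 3 the same difference was -0.04, -0.01 and 0.16. The other pairs of homologues did not repeat so closely. FLO1 minus FLO5 was -0.19, -0.28 and -0.65 for RNA numbers 1, 2 and 3 in the first round and 0.20, -0.03 and -0.24 in the repeat. It was thus below 0 on 5 of 6 mutator arrays, and from 0.12 to 0.29 on non-mutator arrays. FLO9 minus FLO1 was 0.02, -0.31 and -0.17 in the first round and -0.36, -0.55 and -0.58 in the repeat, and from -0.17 to -0.13 on non-mutator arrays.

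FLO10 (YKR102W), a flocculin that also adds to adhesion, did not pass in either line. It stood at 0.24, 0.31 and 0.09 on first-round arrays 1, 2 and 3 and at -0.85, -0.64 and 0.09 on their repeats, with -0.42, 0.04 and -0.26 on non-mutator arrays 2, 4 and 3. The first-round arrays were all above 0, and 2 of the 3 repeat arrays well below it. The mean was -0.13 ± 0.20 (SD, n = 3) in the mutator (95% interval -0.39 to 0.14, adjusted p = 0.32) and -0.22 ± 0.24 (SD, n = 3) in the non-mutator (95% interval -0.48 to 0.05, adjusted p = 0.21). The difference between the lines was 0.09 (95% interval -0.28 to 0.46, adjusted p = 0.63), but it was 0.43 and passed with the first round alone (adjusted p = 0.032).

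FLO11 (YIR019C) varied most of the 8 genes. The mutator arrays gave 1.18, 0.29 and -0.11 for RNA numbers 1, 2 and 3 in the first round and 0.45, -0.97 and -0.75 in the repeat, whereas non-mutator arrays 2, 4 and 3 stayed at 0.03, 0.10 and 0.11. Ratios as deposited ran from 0.555 to 2.44 in the mutator. RNA number 1 was the highest of its round both times. The mean was 0.02 ± 0.69 (SD, n = 3) in the mutator (95% interval -0.55 to 0.58, adjusted p = 0.95) and 0.08 ± 0.04 (SD, n = 3) in the non-mutator (95% interval -0.48 to 0.64, adjusted p = 0.87). Both intervals rest on the shared spread (standard error 0.23 in each line), so the non-mutator interval does not describe the scatter of its own arrays. The interval of the difference, -0.86 to 0.73, allows changes of more than 1.5-fold either way (adjusted p = 0.88). The result depended on replicate 1: without it the mutator mean was -0.38 and FLO11 passed as lower (adjusted p = 0.0011), as did the difference between the lines, at -0.46 (adjusted p = 0.0018). Each replicate left is the mean of a first-round and a repeat array (0.29 and -0.97, -0.11 and -0.75). These p-values thus do not carry the shift between rounds. In the first round alone the mean was 0.45 (limma, adjusted p = 0.10) and in the repeat -0.42 (adjusted p = 0.19).

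FLO8 (YER109C), the gene of the activator, did not pass in either line. Its mutator values were 0.67, -0.05 and 0.25 on first-round arrays 1, 2 and 3 and -0.42, -0.41 and -0.26 on their repeats. The rounds did not overlap. The non-mutator arrays 2, 4 and 3 gave -0.25, -0.07 and -0.17. The mean was -0.04 ± 0.18 (SD, n = 3) in the mutator (95% interval -0.22 to 0.15, adjusted p = 0.67) and -0.16 ± 0.09 (SD, n = 3) in the non-mutator (95% interval -0.35 to 0.02, adjusted p = 0.19). The 2 lines differed by 0.13 (95% interval -0.14 to 0.39, adjusted p = 0.34). On its own the repeat round called FLO8 lower, at -0.36 (adjusted p = 0.0025), while the first round had it at 0.29 (adjusted p = 0.084).

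**Figure D2:**
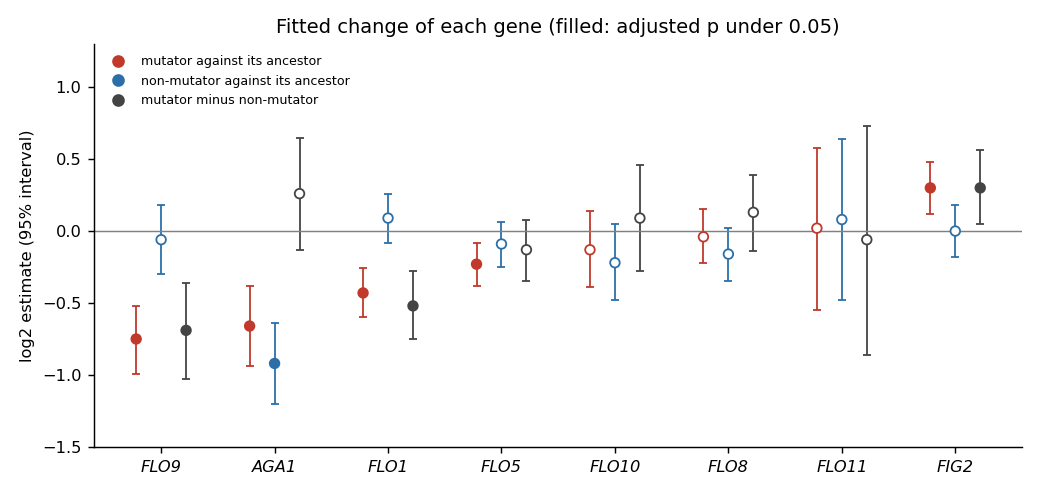
Fitted log2 change of each gene (vertical axis, points) with its 95% interval (bars) in the mutator (red), in the non-mutator (blue) and for mutator minus non-mutator (grey), from 3 replicates per line. Filled points passed at an adjusted p under 0.05. Intervals are widest for FLO11, and AGA1 is the only gene of the 8 whose blue point is filled.

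Of the mating adhesins, AGA1 (YNR044W) fell in both lines. Its values on the mutator arrays were -0.52, -0.85 and -0.74 for RNA numbers 1, 2 and 3 in the first round and -0.19, -1.02 and -0.62 in the repeat, and on non-mutator arrays 2, 4 and 3 they were -0.96, -0.75 and -1.04. All 9 arrays were below 0, and the groups overlapped. AGA1 averaged -0.66 ± 0.29 (SD, n = 3) in the mutator, 1.58-fold lower (adjusted p = 0.0021), and -0.92 ± 0.15 (SD, n = 3) in the non-mutator, 1.89-fold lower (adjusted p = 0.0044). In the non-mutator AGA1 ranked 47th from the lowest of 6866 probes, and in the mutator 1272nd. The difference between the lines, 0.26, did not pass (95% interval -0.13 to 0.65, adjusted p = 0.20), though it reached 0.40 and passed without mutator replicate 2 (adjusted p = 0.049). With arrays scaled to the same spread it was 1.71 (adjusted p = 4.5e-04), a scaling that widens the narrower non-mutator arrays and put AGA1 there at -2.14. The non-mutator call was lost with the hybridisation round as a random block (adjusted p = 0.087), a fit in which the 3 non-mutator arrays form 1 block.

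FIG2 (YCR089W) was the gene that rose in the mutator. It stood at 0.44, 0.20 and 0.29 on first-round arrays 1, 2 and 3, at -0.07, 0.59 and 0.34 on their repeats, and at 0.17, -0.04 and -0.14 on non-mutator arrays 2, 4 and 3. Of the mutator arrays 5 of 6 were above 0, and the groups overlapped. The mutator mean was 0.30 ± 0.11 (SD, n = 3), 1.23-fold higher (adjusted p = 0.0099), and the non-mutator mean 0.00 ± 0.16 (SD, n = 3; adjusted p = 0.98). The difference between the lines was 0.30 (95% interval 0.05 to 0.56, adjusted p = 0.042). This last call was fragile: leaving out mutator replicate 2 or 3, or non-mutator replicate 3 or 4, gave 0.25, 0.29, 0.23 and 0.29 with adjusted p = 0.10, 0.090, 0.13 and 0.12. In the first round FIG2 was 0.31 (adjusted p = 0.012) and in the repeat 0.29 (adjusted p = 0.094).

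Set against each other, 3 of the 8 genes differed between the lines (FLO9 and FLO1 lower in the mutator, FIG2 higher), where 63.9% of all probes passed this test. The order of the mutator means ran from FLO9 (-0.75) through AGA1 (-0.66), FLO1 (-0.43), FLO5 (-0.23), FLO10 (-0.13), FLO8 (-0.04) and FLO11 (0.02) to FIG2 (0.30). The replicate values of each gene overlapped those of its neighbours in this order, so adjacent positions are not separated beyond their spread. In the non-mutator AGA1 (-0.92) stood apart at the lower end, and the other 7 genes lay between -0.22 and 0.09.

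The rounds of hybridisation were compared next, because FLO8 and FLO11 were lower on the repeat array of every RNA number, and FLO10 on those of numbers 1 and 2 (0.09 in both rounds for number 3). The mean of repeat minus first was -0.65 ± 0.39 for FLO8 (SD, n = 3; 95% interval -1.16 to -0.15), -0.68 ± 0.59 for FLO10 (SD, n = 3; 95% interval -1.37 to 0.01) and -0.88 ± 0.34 for FLO11 (SD, n = 3; 95% interval -1.34 to -0.41). None passed after adjustment (limma, adjusted p = 0.21, 0.28 and 0.12). For the other 5 genes the mean ranged from -0.10 for FLO5 and FLO9 to 0.25 for FLO1. Over all 6520 probes that could be compared 1.29% passed this test, and 0 of the 8 genes did. At an unadjusted p under 0.05 there were 2 of the 8 (FLO8 and FLO11), against 18.4% of all probes. The repeat of RNA number 2 was hybridised against ancestor RNA number 1, and its part in these values was not tested.

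**Figure D3:**
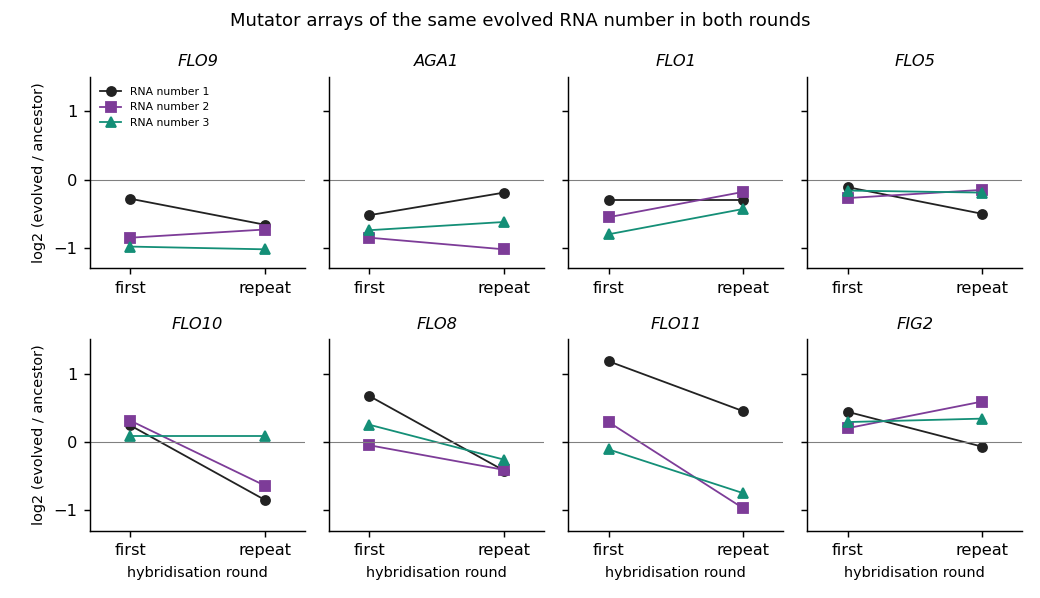
Array-centred log2 ratios (vertical axis) on the first and the repeat mutator array (horizontal axis) of each evolved RNA number, 1 panel per gene, with lines joining arrays of the same number. FLO11 and FLO8 drop from the first to the repeat round for all 3 numbers, while FLO9, AGA1, FLO5 and FIG2 show no common direction.

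Lists of related genes are described by their counts, to be set beside the 37.3% of all probes that passed as higher and the 37.8% that passed as lower in the mutator, the 10.2% and 11.1% in the non-mutator, and medians over all probes of 0.02 and 0.00. Regulators of the FLO genes gave calls in both directions, near these shares. The list of 21 genes holds activators and repressors of FLO transcription and the signalling genes above them, and lists were chosen with earlier results of these data known. In the mutator 9 rose, 8 fell and 4 did not pass (median 0.07), and in the non-mutator 2 rose and 1 fell (median 0.03). TPK2, the gene of a catalytic subunit of protein kinase A, which acts on Flo8 and on the repressor Sfl1, fell in the mutator (-1.05 ± 0.10, SD, n = 3; adjusted p = 9.2e-06). It rose in the non-mutator (0.29 ± 0.08, adjusted p = 0.016), a call that was lost when any 1 non-mutator replicate was left out, with adjusted p of 0.065 to 0.11. TPK3, also the gene of a catalytic subunit, rose in the mutator (0.98 ± 0.06, adjusted p = 1.2e-05). The repressor gene NRG2 rose in the mutator (0.80 ± 0.05, adjusted p = 1.1e-05), and GPA2, the gene of a G protein alpha subunit acting upstream of protein kinase A, fell in the mutator (-0.88 ± 0.17, adjusted p = 5.3e-05) and in the non-mutator (-0.26 ± 0.03, adjusted p = 0.046). The GPA2 call in the non-mutator was lost without any 1 of its replicates (adjusted p of 0.13 to 0.21). YAP6, the gene of a transcription factor of the bZIP family, fell in the mutator (-1.63 ± 0.13, adjusted p = 2.3e-05). MGA1, a gene whose extra copies raise filamentous growth, rose in the non-mutator (0.61 ± 0.02, adjusted p = 0.0039). In the mutator it was 0.07 ± 0.19 (adjusted p = 0.43), passing as lower in the first round (-0.31, adjusted p = 0.0079) and as higher in the repeat (0.44, adjusted p = 0.038). Chosen after its values were seen, SFL1, the gene of the repressor that binds the FLO11 promoter, rose in the mutator (0.66 ± 0.18, adjusted p = 2.2e-04).

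The mitogen-activated protein (MAP) kinase pathway of filamentous growth leads to FLO11 through Ste12 and Tec1. Of its 13 genes 6 rose, 2 fell and 5 did not pass in the mutator (median 0.14), and 1 fell in the non-mutator (median -0.01). MSB2, the gene of the mucin at the head of the pathway, rose in the mutator (0.91 ± 0.13, adjusted p = 5.0e-05) and fell in the non-mutator (-0.73 ± 0.12, adjusted p = 0.0020), a difference of 1.64 (adjusted p = 3.0e-05). The genes of the kinase Ste20 (0.85 ± 0.15), the membrane protein Sho1 (0.56 ± 0.11) and the Ste12 inhibitor Dig2 (0.73 ± 0.13) rose in the mutator, with adjusted p = 3.8e-05, 2.3e-04 and 6.4e-05. The gene of the kinase Ste7 fell (-1.27 ± 0.20, adjusted p = 4.7e-05). Chosen after their values were seen, the transcription factor genes STE12 (0.59 ± 0.18, adjusted p = 0.0012) rose and TEC1 (-0.56 ± 0.20, adjusted p = 8.1e-04) fell.

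Genes induced by mating pheromone, as AGA1 and FIG2 are, fell more than they rose. Of 12 such genes 0 rose, 7 fell and 5 did not pass in the mutator (median -0.56), and in the non-mutator 0 rose and 4 fell (median -0.27). In the mutator 3 of them passed as higher without centring. AGA2, the gene of the binding subunit that Aga1 holds on the wall of a cells, ranged from -2.41 to -2.04 on mutator arrays and stood at -1.06, -1.27 and -1.13 on non-mutator arrays 2, 4 and 3. It fell in both lines, to -2.23 ± 0.08 (SD, n = 3; adjusted p = 8.6e-07) and -1.15 ± 0.11 (SD, n = 3; adjusted p = 2.6e-04), and further in the mutator by 1.08 (difference -1.08, adjusted p = 7.3e-05). With arrays scaled to the same spread the direction of this difference turned. All 6 marker genes of a cells listed below, AGA2 among them, then passed as higher in mutator minus non-mutator. The groups of AGA2 values did not overlap, in contrast to AGA1. SAG1, the gene of the alpha-agglutinin that Aga2 binds, was at 0.17, -0.47 and -0.34 on first-round mutator arrays 1, 2 and 3, at -1.20, -1.11 and -0.57 on their repeats, and at -0.36, -0.49 and -0.64 on non-mutator arrays 2, 4 and 3. It fell to -0.58 ± 0.18 in the mutator (adjusted p = 8.5e-04) and -0.50 ± 0.14 in the non-mutator (adjusted p = 0.011), but not with the first round alone (-0.21 in the mutator, adjusted p = 0.18). The SAG1 call in the non-mutator was lost without replicate 3 or 4 (adjusted p = 0.082 and 0.077). The cell fusion gene FUS1 (-2.72 ± 0.24), ASG7 (-2.07 ± 0.36), the pheromone-regulated membrane protein gene PRM4 (-1.45 ± 0.19) and the kinase gene FUS3 (-0.53 ± 0.11) also fell in the mutator, with adjusted p = 1.6e-06, 1.6e-05, 9.8e-06 and 3.4e-04. FUS3 (-0.29 ± 0.10) and PRM4 (-0.30 ± 0.09) fell in the non-mutator too (adjusted p = 0.024 and 0.039). Those calls were lost for PRM4 without any 1 non-mutator replicate (adjusted p of 0.11 to 0.19), and for FUS3 without replicate 3 or 4 (0.15 for each). Without either of these replicates 1 gene of the list passed as lower in the non-mutator. Other settings moved this count up, to 7 with each line fitted alone and to 7 with arrays scaled to the same spread. Of all probes 35.8% and 50.3% passed in the non-mutator under these settings.

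Marker genes of a cells moved alongside AGA1. All 6 genes of the a-specific list (MFA1, MFA2, STE2, STE6, BAR1 and AGA2) fell in both lines. Their median was -2.17 in the mutator, ranging from -4.0 to -0.89, and -2.23 in the non-mutator, ranging from -2.81 to -1.15. ASG7, also an a-specific gene but counted in the pheromone list, fell in the mutator (-2.07 ± 0.36). In the non-mutator ASG7 was -0.28 ± 0.02 and did not pass (limma, adjusted p = 0.18). Of the alpha-specific genes 3 of 4 were tested, and SAG1 was the 1 that fell in each line (medians -0.12 and -0.17), while MF(ALPHA)2 and STE3 did not pass in either. Whether the fall of AGA1 depends on that of the a-specific genes was not tested. Ratios give no absolute level, so the mating type of the strains cannot be read from them.

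**Figure D4:**
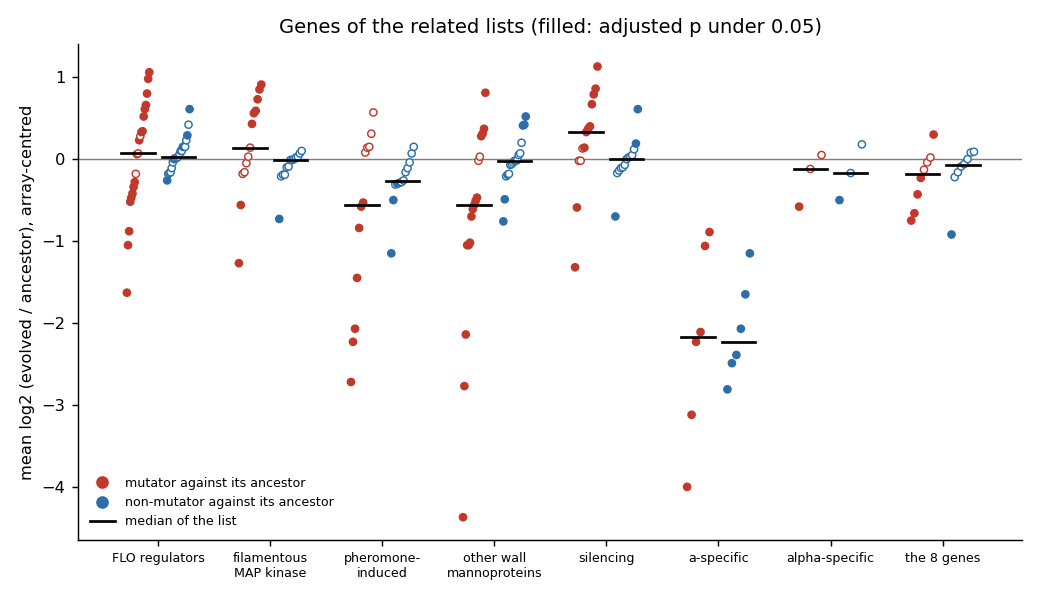
Mean array-centred log2 ratio (vertical axis) of each tested gene of 7 related lists and of the 8 adhesion genes, in the mutator (red) and the non-mutator (blue), over 3 replicates per line. Filled points passed at an adjusted p under 0.05 and black bars are list medians. All 6 genes of the a-specific list are far below 0 in both lines, whereas the 8 adhesion genes stay between -0.92 and 0.30.

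Other mannoproteins that are linked to the cell wall, most through a glycosylphosphatidylinositol (GPI) anchor as the flocculins are, fell more often than they rose in the mutator. Of 17 tested (20 listed) 4 rose, 11 fell and 2 did not pass (median -0.56), and in the non-mutator 3 rose and 3 fell (median -0.02). The stress-induced wall protein gene SPI1 fell furthest (-4.37 ± 0.20, adjusted p = 3.9e-07), and SED1, the gene of a major wall protein of stationary phase, fell to -1.05 ± 0.12 (adjusted p = 9.7e-06). YGP1, the gene of a secreted glycoprotein made on nutrient limitation, fell in the mutator (-2.77 ± 0.07, adjusted p = 4.3e-07) and rose in the non-mutator (0.52 ± 0.10, adjusted p = 0.0026). The mannoprotein genes TIR1 (-0.47 ± 0.28 and 0.42 ± 0.02) and TIR2 (-1.02 ± 0.25 and 0.41 ± 0.03) likewise fell in the mutator and rose in the non-mutator. TOS6 did the reverse (0.81 ± 0.04 and -0.19 ± 0.06). HPF1, a gene for a wall mannoprotein that reduces haze in wine, fell in both (-1.05 ± 0.40 and -0.76 ± 0.29), as did CWP1 (-0.61 ± 0.02 and -0.49 ± 0.12). Single mutator arrays ran from -1.05 to -0.13 for CWP1 and from -3.36 to -2.26 for YGP1, far wider than the SD of the averaged replicates. For CWP1 the groups of arrays overlapped. The highest adjusted p among these TIR1, TIR2, TOS6, HPF1 and CWP1 values was 0.032 (limma). In the non-mutator the calls of TIR1, TIR2, TOS6 and HPF1 were lost without any 1 of its replicates (adjusted p of 0.06 to 0.15), which left 1 higher and 1 lower in the list. TIR1 in the mutator was -0.23 in the first round alone and did not pass (adjusted p = 0.33).

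Genes that silence chromatin near chromosome ends or at FLO genes gave more calls higher than lower in the mutator. Of 13 tested (14 listed) 8 rose, 2 fell and 3 did not pass (median 0.33), where 37.3% of all probes passed as higher and 37.8% as lower; with arrays scaled to the same spread 5 passed as higher. In the non-mutator 2 of its genes rose and 1 fell (median 0.00). The histone deacetylase gene SIR2 rose in both lines, by 1.13 ± 0.04 (adjusted p = 5.6e-06) and 0.61 ± 0.10 (adjusted p = 0.0013). RAP1, the gene of the telomere-binding protein, rose in the mutator (0.67 ± 0.11, adjusted p = 6.3e-05), as did the acetyltransferase gene SAS2 (0.86 ± 0.16, adjusted p = 5.4e-05). HDA2, a subunit of the deacetylase complex that acts on FLO11, fell (-1.32 ± 0.13, adjusted p = 8.6e-06), and so did the deacetylase gene HST2 (-0.59 ± 0.05, adjusted p = 2.9e-05). In the non-mutator the repressor gene SUM1 fell (-0.70 ± 0.12, adjusted p = 0.0028) and SIR3 rose (0.19 ± 0.08, adjusted p = 0.046), with mutator values of -0.02 ± 0.16 (adjusted p = 0.85) and 0.13 ± 0.06 (adjusted p = 0.053). The SIR3 call in the non-mutator was lost without any 1 of its replicates (adjusted p of 0.081 to 0.26).

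The genes beside each adhesion gene were examined to see whether a stretch of the chromosome moved with it. Of the 48 nearest genes with a value, 3 on each side, 16 rose and 15 fell in the mutator and 3 rose and 6 fell in the non-mutator. Over all probes 37.3% passed as higher and 37.8% as lower in the mutator, and 10.2% and 11.1% in the non-mutator, so these counts are not a result about the neighbours. Around FLO9, YAL064W on one side was 0.05 ± 0.60 (adjusted p = 0.84) and the glutamate dehydrogenase gene GDH3 on the other 0.00 ± 0.21 (adjusted p = 0.99) in the mutator. Single mutator arrays of YAL064W ran from -0.77 to 1.35. Beyond GDH3, BDH2 (-2.16, adjusted p = 2.0e-06) and BDH1 (-1.45, adjusted p = 1.5e-06) fell in the mutator. On the other side SEO1, 3 places from FLO9, rose (1.79, adjusted p = 7.5e-05). Beside FLO1, YAR061W, a pseudogene fragment related to the flocculins, rose in the mutator (1.64 ± 0.51, adjusted p = 2.0e-04). Its values were 0.19, 1.19 and 1.85 in the first round and 2.18, 1.91 and 2.54 in the repeat, opposite to FLO1 on all 6 mutator arrays. On non-mutator arrays 2, 4 and 3 YAR061W was 0.15, 0.30 and 0.26, above 0 as FLO1 was there, and the groups overlapped. YAL065C, which lies 2 genes from FLO9 and also resembles flocculins, passed as higher as well (0.99 ± 0.91, adjusted p = 0.025). Only 4 mutator arrays gave a value, and these ran from 0.28 to 2.02. Their ratios as deposited, 4.4, 1.3, 1.3 and 2.2, have no more than 1 decimal, so the call rests on coarse ratios only. Ratios that coarse numbered 105 to 198 on mutator arrays, against 2 to 5 on those of the other line. For YAL065C the difference between the lines was 1.10 and did not pass (limma, adjusted p = 0.064). YHR213W, the flocculin-like fragment next to FLO5, ranged from -3.20 to 2.45 on mutator arrays (-0.05 ± 1.69, adjusted p = 0.93).

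The other direct neighbours gave calls in both directions, several of them beside adhesion genes that did not pass or that moved the other way. In the mutator YHR210C beside FLO5 (-0.18 ± 0.05, adjusted p = 0.0086), YIR020C beside FLO11 (-0.26 ± 0.25, adjusted p = 0.041), PET494 beside AGA1 (-0.62 ± 0.13, adjusted p = 1.4e-04) and ABP1 beside FIG2 (-0.86 ± 0.11, adjusted p = 2.1e-05) fell. On single arrays 1, 2 and 3 YHR210C was -0.33, -0.30 and -0.20 in the first round and 0.01, 0.03 and -0.26 in the repeat. The nuclear transport genes GLE2 (0.35 ± 0.12, adjusted p = 0.0020) and KAP123 (0.84 ± 0.12, adjusted p = 2.5e-05) on either side of FLO8 rose, as did NFT1 beside FLO10 (0.62 ± 0.30, adjusted p = 0.0028). SWH1 beside FLO1 (0.40 ± 0.65), SIR1 beside FLO10 (-0.02 ± 0.47), YAP5 beside FLO11 (-0.06 ± 0.12), MVD1 beside AGA1 (-0.09 ± 0.05) and YCR090C beside FIG2 (-0.08 ± 0.30) did not pass. In the non-mutator MVD1, the mevalonate pathway gene next to AGA1, fell as AGA1 did (-0.60 ± 0.05, adjusted p = 7.9e-04), and YHR210C rose (0.18 ± 0.03, adjusted p = 0.031).

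**Figure D5:**
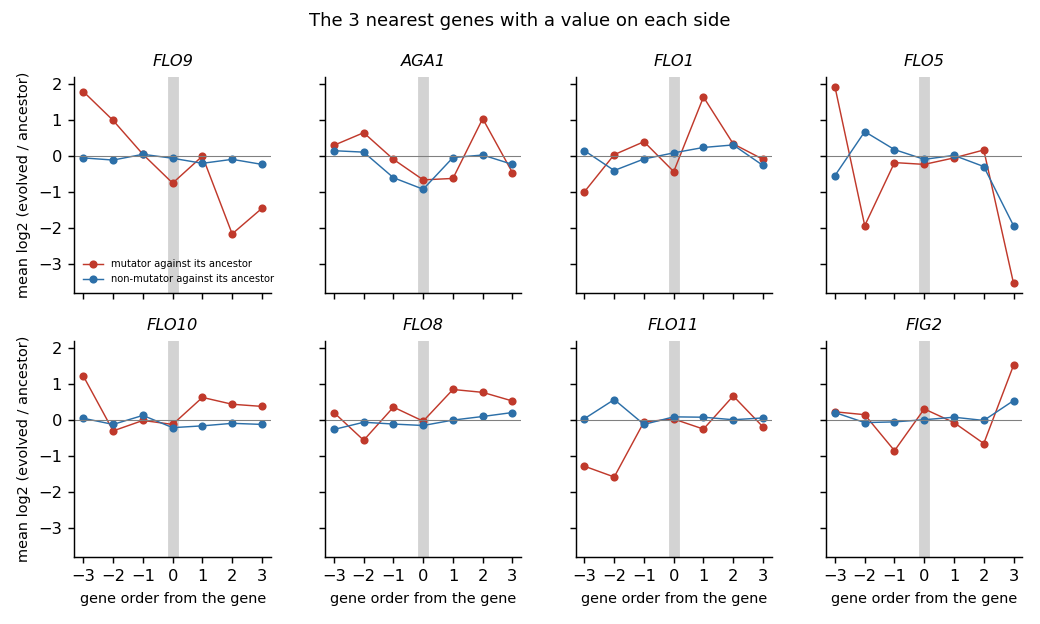
Mean array-centred log2 ratio (vertical axis) of each adhesion gene (position 0, grey bar) and of the 3 nearest genes with a value on each side, in the order of the reference (horizontal axis, gene positions), in the mutator (red) and the non-mutator (blue) over 3 replicates. FLO9 at -0.75 lies between direct neighbours at 0.05 and 0.00 in the mutator, with BDH2 and BDH1, 2 and 3 places away, at -2.16 and -1.45.

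Likeness of pattern was measured as the root mean square difference of log2 ratios over the 9 arrays, among 5291 other genes with a value on every array. Nearest to FLO1 was ATP15 (0.07), then CAB5 (0.12) and HNT1 (0.12), where the median over all genes was 0.59. Nearest to FLO9 were YGL081W (0.09), the daughter-cell wall gene DSE2 (0.13) and PET8 (0.14), and nearest to FLO5 were YER034W (0.10), BYE1 (0.10) and YJR084W (0.11). No homologue was thus among the 3 genes nearest to FLO1, FLO5 or FLO9, and the distances between these homologues were 0.29 (FLO1 and FLO5), 0.33 (FLO1 and FLO9) and 0.49 (FLO5 and FLO9). AGA1 was nearest to ERG3 (0.25), TFC3 (0.29) and the acid phosphatase gene PHO5 (0.30), and FIG2 to CTF3 (0.12), RPS29B (0.12) and COQ9 (0.13). FLO8 was nearest to YDR444W (0.14), BUL1 (0.14) and LYS14 (0.15), and FLO10 to GYP6 (0.18), YCR023C (0.21) and PEX4 (0.23). FLO11 had the most distant nearest genes, MRX11 (0.38), CDA2 (0.38) and HCM1 (0.39), where its median over all genes was 0.76. That median differed by gene, from 0.50 for FLO5 to 0.89 for AGA1. The arrays share their rounds and reference RNA, so these distances are a description only.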

How the data were processed

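Total RNA had been isolated with the Qiagen RNeasy Midi kit and hybridised to 2-colour arrays, per the labels' protocols. The deposited values are linear ratios, by the labels' channels evolved strain (Cy5) over ancestor (Cy3); how the authors corrected background or normalised is not given in the sources used here, nor are intensities. The number of arrays limits the precision. Ratios at the lowest value of 0.01 (tolerance 1e-04) were set to missing. Ratios were turned into log2, centred per array, and both mutator arrays of an RNA number averaged; non-mutator replicates carry the numbers of their titles, although their descriptions differ.

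Probes with values in at least 2 replicates of each line were fitted in limma 3.58.1 (lmFit, eBayes; R 4.3.3) with a mean per line and 4 residual degrees of freedom, two-sided, with Benjamini-Hochberg adjustment over all 6866 probes; the pipeline was tested on simulated data. Intervals are 95% intervals of that fit. The test between rounds, on repeat minus first per RNA number, was added after the values were seen. Members and lists were chosen with earlier results of these data known. Named were all 8 genes. Each list gave up to 5 genes with the smallest p among those called in the mutator, and any called in the non-mutator. The direct neighbour on each side and the 3 most alike genes of each were also named. Genes 2 or 3 places away are all counted, but only those beside FLO9 are named. Other exceptions are stated. Symbols and gene order come from the R64 reference table (5644 of 6089 named probes matched); CWP2, CCW14, DAN1, HDA3 and MF(ALPHA)1 of the lists were not tested. Sequences were not analysed here, and 1 gene left out of the lists is not reported here. Alternatives numbered 22. Figures were drawn in Python 3.11.15 (matplotlib 3.10.9; tables read through pandas 2.3.3).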

Additional observations from a re-analysis of the deposited data

Results flagged for a closer look

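Differences between the lines that passed their own test in limma were -0.52 for FLO1 (adjusted p = 0.0040), -0.69 for FLO9 (adjusted p = 0.0049) and 0.30 for FIG2 (adjusted p = 0.042), mutator minus non-mutator. FLO1 and FLO9 were below 0 on 6 of 6 mutator arrays, and FIG2 was above 0 on 5 of 6.

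Many genes of the related lists differed between the lines, SPI1 (-4.36) and FUS1 (-2.56) among them. Those named in the text that passed in both lines in opposite directions differed as follows: TPK2 (-1.34, adjusted p = 2.6e-05), MSB2 (1.64, adjusted p = 3.0e-05), YGP1 (-3.29, adjusted p = 1.9e-06), TOS6 (1.0, adjusted p = 3.4e-05), TIR2 (-1.43, adjusted p = 1.5e-04) and TIR1 (-0.89, adjusted p = 0.0018). YHR210C, beside FLO5, did the same and differed by -0.36 (adjusted p = 0.0023), though 2 of its 6 mutator arrays, both of the repeat round, were above 0. AGA2, which fell in both lines, differed by -1.08 (adjusted p = 7.3e-05). With arrays scaled to the same spread AGA2 passed in the opposite direction, as higher in mutator minus non-mutator.

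Single mutator arrays stood far from the other 5 in 6 of 62 genes looked at, where chance alone marks about 1 in 20 such groups. GPA2 was -1.40 on first-round array 1, against -0.85 to -0.63 on the others. On repeat array 1, STE20 was 1.22 (others 0.75 to 0.81), DIG2 was 0.24 (others 0.69 to 0.95) and SIR1 was -1.26 (others -0.04 to 0.42). YAP5 was 0.24 on repeat array 3 (others -0.19 to -0.08), and YIR020C was -0.95 on repeat array 2 (others -0.29 to 0.08). None of the 8 adhesion genes was marked in this way.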

How the results depend on the processing

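The counts of adhesion genes called (mutator 5, non-mutator 1, difference 3) stayed within 1.5 times under most of the 22 alternatives. With arrays scaled to the same spread they were 3 in the mutator and 2 in the non-mutator, and 52.5% and 50.3% of all probes passed. With the round as a random block they were 3 and 0 (limma; 5 and 1 at an unadjusted p under 0.05), and 60.5% and 1.19% of all probes passed. A log2 size of at least 1 left 0 in all 3 comparisons, since no adhesion gene reached it. Leaving out 1 replicate left 5 and 1 calls within the lines and 2 to 4 in the difference. Equal counts did not always hold the same genes. Without mutator replicate 1 FLO5 lost its call in the mutator (limma, adjusted p = 0.058) and FLO11 gained one. The repeat round alone also gave 5 in the mutator, without FIG2 (adjusted p = 0.094) and with FLO8 (adjusted p = 0.0025). The decreases of FLO1, FLO9 and AGA1 in the mutator passed in every alternative except that size threshold (adjusted p up to 0.021, 0.0085 and 0.031). FLO5 lost its call in 7 of 21 alternatives and FIG2 in 4 of 21, while the difference of FIG2 lost it in 12 of 21. Leaving out 1 replicate moved FLO11 in the mutator between -0.38 and 0.24, and it passed as lower (-0.38) without mutator replicate 1, and MGA1 was -0.31 and passed in the first round alone; the cause was not tested. Shared replicate numbers (2 and 3) do not pair the lines (r of deviations -0.0359 and 0.0174): with them as a replicate block the difference still had 3 calls, with FLO11 in (-0.45, adjusted p = 0.038) and FIG2 out (0.34, adjusted p = 0.082). Of 777 alternative values for the other 37 named list genes 751 kept their side of the threshold and direction in the mutator and 647 in the non-mutator. Signal over background is not known here, so how far dim probes limit these values was not tested.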
